A study of Danio rerio with 5 samples.

Results

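The B-cell receptor signalling genes described here are 7 genes chosen by name, out of 32520 gene IDs counted in each library. They are cd79a (ENSDARG00000037473), cd79b (ENSDARG00000104691), SYK (ENSDARG00000008186), blnk (ENSDARG00000042722), BTK (ENSDARG00000004433), PAX5 (ENSDARG00000037383) and cd37 (ENSDARG00000075515), spelled as the table of gene names gives them. Each name matched exactly 1 zebrafish gene ID, and all 7 were abundant enough to be tested. The 7 genes were chosen with earlier results of these data known. The libraries are bulk RNA sequencing of whole adult zebrafish (Danio rerio) kidney, each from 3 pooled kidneys of fish about 2.5 months old of the EK strain. The wild-type group holds 3 libraries, numbered 1, 2 and 3. The other group holds 2 libraries, numbered 5 and 6, of siblings homozygous for the runx1 allele del8 (hg96), called mutant pools here. The title of the series asks how RUNX1 and GATA2 act in blood development. The comparison here is of RNA of the whole kidney, marrow and other tissue together, between wild-type fish and fish homozygous for this runx1 allele.

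A B cell senses antigen through a membrane immunoglobulin that has no signalling tail of its own. The paired chains Cd79a and Cd79b carry the signal inward, the kinase Syk docks on them, and the adaptor Blnk brings Btk and phospholipase C gamma 2 together to release calcium. PAX5 is the transcription factor that commits cells to the B lineage, and in the mouse it activates the genes for CD79A and BLNK. CD37 is a tetraspanin of the surface of mammalian leukocytes, abundant on mature B cells. SYK, BTK and BLNK are also used by other blood cells in mammals, SYK by platelets and myeloid cells and BTK by myeloid cells, whereas CD79A, CD79B and PAX5 mark B cells within blood. In zebrafish the kidney marrow is a site of B-cell development in the adult.

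Between 27631376 and 33752278 reads per pool were assigned to genes, and 3 counts corresponded to between 0.0876 and 0.113 CPM (the count divided by the TMM-scaled library size, on the usual CPM scale of edgeR). Libraries stood apart by markers of other tissues and cells, partly across the genotypes. The summed level of 10 ovary markers was 911 CPM in wild-type pool 2 and 5655 CPM in mutant pool 6, against 4.95 to 13.3 CPM in the other 3 libraries. The summed level of 7 pan-leukocyte genes was 273 to 729 CPM in wild type, 419 CPM in mutant pool 5 and 121 CPM in mutant pool 6. The 9 nephron markers summed to 54.0 to 493 CPM in wild type, 2555 CPM in mutant pool 5 and 307 CPM in mutant pool 6, with 0 lower and 2 higher in both mutant pools. The 9 erythroid markers summed to 32231 to 58201 CPM in wild type, 39491 CPM in mutant pool 5 and 5311 CPM in mutant pool 6, with 6 lower and 1 higher in both. Of all tested genes, 14.8% were lower and 11.1% higher in both mutant pools than in every wild-type pool. None of the pan-leukocyte, nephron or erythroid markers was at 0 in any library, and the part of these tissues and cells in the differences of the 7 genes was not tested. The RUNX1 transcript itself averaged 3.54 ± 0.469 CPM (SD, n = 3) over the wild-type pools, against 3.77 ± 3.03 CPM (SD, n = 2) over the mutant pools, so its level did not check the labels.

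The receptor chains cd79a and cd79b, the lineage factor PAX5 and the tetraspanin cd37 were lower in both mutant pools than in every wild-type pool, with mutant means of 0.0803 to 3.37 CPM against 3.01 to 22.9 CPM in wild type. The intracellular genes SYK, blnk and BTK overlapped between the groups, because mutant pool 5 lay among the wild-type pools or above them. Thus 4 of the 7 genes had groups that did not overlap in the lower direction, where 14.8% of all 20386 tested genes did. None of the 7 had an adjusted p under 0.05 in edgeR's quasi-likelihood test, where 0% of all tested genes passed; at an unadjusted p under 0.05 there were 4 of the 7, all lower, against 1.21% of all genes in that direction and 3.16% in the other. The 7 genes were chosen with earlier results of these data known, so neither comparison of shares is an independent test. With few mutant counts, cd79a, cd79b and PAX5 also passed the filter on low counts only because of the wild-type pools. In bulk kidney RNA, fewer B cells and less RNA per B cell cannot be told apart.

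**Figure D1:**
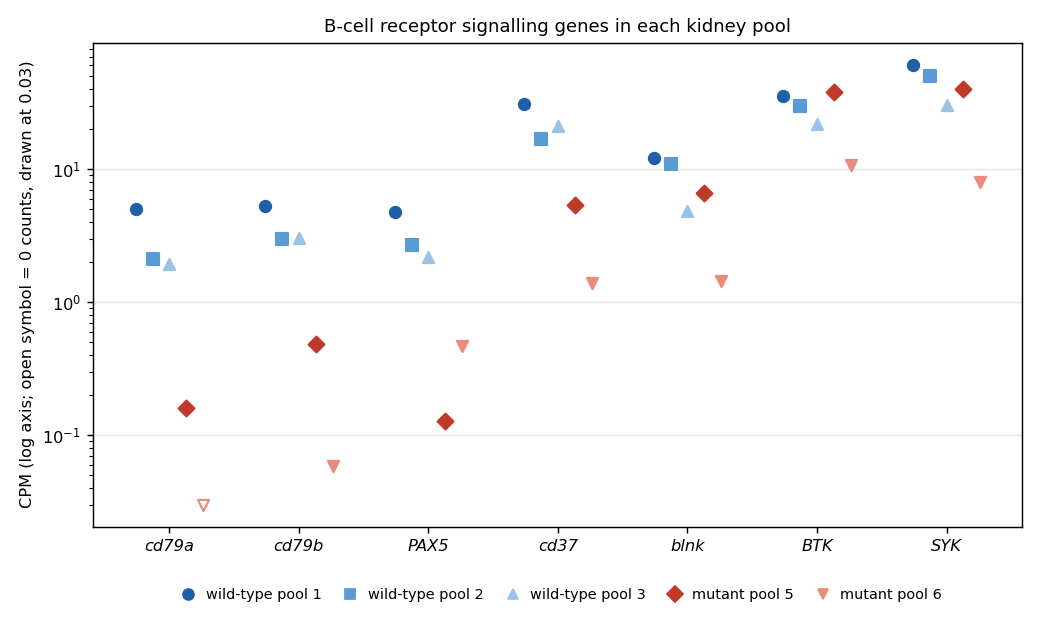
CPM on a log axis of the 7 genes in each of the 5 libraries (blue symbols, wild-type pools 1 to 3; red symbols, mutant pools 5 and 6). cd79a, cd79b, PAX5 and cd37 lie lower in both mutant pools than in all wild-type pools, whereas for blnk, BTK and SYK mutant pool 5 lies within or above the wild-type values and mutant pool 6 below them.

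The receptor chain gene cd79a had 171, 58 and 51 counts in wild-type pools 1, 2 and 3, and 5 and 0 counts in mutant pools 5 and 6. This was 5.02, 2.09 and 1.93 CPM in the wild-type pools and 0.161 and 0 CPM in the mutant pools. Both mutant pools were thus close to the smallest level that the depth can show. The group levels were 3.01 ± 1.74 CPM (SD, n = 3) and 0.0803 ± 0.114 CPM (SD, n = 2). The log2 fold change, mutant over wild type, was -5.18 (standard error 1.53), with a 95% interval from -8.95 to -1.42 and an edgeR adjusted p of 0.612. The wild-type mean was 18.7 times the level of mutant pool 5. It was 34.4 times the level of 3 counts, taken as the floor, in mutant pool 6. This is not a lower bound, because the exact 95% Poisson interval of the 0 counts there reached 3.69 counts, or 0.108 CPM.

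Its partner chain cd79b had 180, 82 and 80 counts in wild-type pools 1, 2 and 3, and 15 and 2 counts in mutant pools 5 and 6. The levels were 5.28, 2.96 and 3.02 CPM in the wild-type pools and 0.482 and 0.0584 CPM in the mutant pools. The lowest wild-type pool was 6.13 times mutant pool 5, and the groups did not overlap. The log2 fold change was -3.78 (standard error 1.14), with a 95% interval from -6.59 to -0.97 and an edgeR adjusted p of 0.612. In the DESeq2 Wald test, which called 0.263% of genes as lower and 0.116% as higher, both chains passed, with adjusted p-values of 0.00837 for cd79a and 0.0311 for cd79b; the other 5 genes did not, at 0.0539 for PAX5, 0.06704 for cd37 and 0.515 or more for the rest. At the gene-wise spread of these libraries, DESeq2 calls on simulated counts held many unchanged genes, so these 2 calls may be less firm than their p-values. How much less cannot be read from the simulation, which drew each gene independently and left out shared tissue content.

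As the 2 chains work as a pair, their counts were also set against each other within each library. The share of cd79a among the counts of both genes was 48.7%, 41.4% and 38.9% in wild-type pools 1, 2 and 3. In mutant pool 5 it was 25%, with an exact 95% binomial interval from 8.66% to 49.1%, which includes all 3 wild-type shares. This interval and those of other shares cover counting error only, not the spread between pools. With 2 counts for the pair in mutant pool 6 the share could not be resolved.

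The lineage factor PAX5 had 163, 74 and 58 counts in wild-type pools 1, 2 and 3, and 4 and 16 counts in mutant pools 5 and 6. Its level was 4.78, 2.67 and 2.19 CPM in the wild-type pools and 0.129 and 0.467 CPM in the mutant pools. The groups were 3.21 ± 1.38 CPM (SD, n = 3) and 0.298 ± 0.239 CPM (SD, n = 2). This gave PAX5 a log2 fold change of -3.41, a standard error of 0.97, a 95% interval from -5.81 to -1.01 and an edgeR adjusted p of 0.612. The mutant pools were ordered opposite to the receptor chains. PAX5 was lowest in mutant pool 5, at 4.001% of the wild-type mean, and stood at 14.5% in mutant pool 6. By contrast cd79b was at 12.8% of its wild-type mean in mutant pool 5 and at 1.56% in mutant pool 6. The exact 95% Poisson intervals of the PAX5 counts were 1.09 to 10.2 in mutant pool 5 and 9.15 to 25.98 in mutant pool 6, which cover counting error only.

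The tetraspanin gene cd37 was the most counted of the 4 genes whose groups did not overlap. It had 1053, 466 and 555 counts in wild-type pools 1, 2 and 3, and 166 and 48 counts in mutant pools 5 and 6. Its level was 30.9, 16.8 and 21.0 CPM in the wild-type pools and 5.33 and 1.40 CPM in the mutant pools, 23.3% and 6.12% of the wild-type mean. For cd37 the log2 fold change was -2.76 (standard error 0.81), with a 95% interval from -4.75 to -0.78 and an edgeR adjusted p of 0.612. Every count of this gene was well above the floor of 3 counts.

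Among the intracellular genes, the kinase SYK had 2074, 1381 and 801 counts in wild-type pools 1, 2 and 3, and 1239 and 274 counts in mutant pools 5 and 6. Its level was 60.8, 49.8 and 30.3 CPM in the wild-type pools and 39.8 and 7.997 CPM in the mutant pools. Mutant pool 5 lay between wild-type pools 2 and 3, and mutant pool 6 below all. The log2 fold change was -0.97 (standard error 0.77), with a 95% interval from -2.88 to 0.93, and the edgeR adjusted p was 0.627.

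The adaptor gene blnk had 414, 303 and 128 counts in the wild-type pools and 205 and 49 counts in mutant pools 5 and 6. This was 12.1, 10.9 and 4.83 CPM against 6.59 and 1.43 CPM, so that mutant pool 5 again lay inside the wild-type range. The log2 fold change was -1.21 (standard error 0.89), with a 95% interval from -3.41 to 0.98, at an edgeR adjusted p of 0.614.

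The kinase BTK had 1203, 829 and 573 counts in the wild-type pools and 1170 and 369 counts in mutant pools 5 and 6. Its level was 35.3, 29.9 and 21.6 CPM in wild-type pools 1, 2 and 3, and 37.6 and 10.8 CPM in the mutant pools. The highest of the 5 libraries and the lowest were therefore both mutant pools. The log2 fold change was -0.26 (standard error 0.65), with a 95% interval from -1.87 to 1.35, at an edgeR adjusted p of 0.869. Without mutant pool 6 the sign turned, to 0.41.

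The values were also taken within each side of the split by ovary markers. Between mutant pool 6 and wild-type pool 2, log2 CPM differed by -5.05 for cd79a, -4.61 for cd79b, -3.52 for cd37 and -2.36 for PAX5. Between mutant pool 5 and the mean of wild-type pools 1 and 3 the differences were -3.82, -2.89, -2.24 and -4.09 in the same order of genes. The direction of these 4 on both sides was fixed by the lack of overlap, which leaves only their sizes to read. Mutant pool 6 had 0 counts of cd79a and 2 of cd79b, so the -5.05 and -4.61 are largely set by the prior count of 2. The sizes of cd79a and PAX5 in mutant pool 5, from 5 and 4 counts, also depend on it. For the intracellular genes the sides differed. On the first side the differences were -2.63 for SYK, -2.88 for blnk and -1.47 for BTK, and on the second they were -0.11, -0.22 and 0.44. The second side, with wild-type pools 1 and 3 and mutant pool 5, was also fitted in edgeR, where the lone mutant pool is assumed to vary like wild type. There cd79a was at -4.43, cd79b at -3.13, cd37 at -2.31 and PAX5 at -4.75, and their edgeR adjusted p-values were 0.492 to 0.506. The first side has 1 pool of each genotype and allows no test.

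In mammals other blood cells also use SYK, BTK and BLNK, and the levels of markers of such cells differed between these libraries. The summed level of 7 macrophage markers was 322 to 626 CPM in wild type and 261 to 530 CPM in the mutants, with 2 of the 7 genes lower in both mutant pools. For 6 neutrophil markers it was 95.5 to 769 CPM against 105 to 193 CPM, with 0 of 6 lower, and for 5 thrombocyte markers 811 to 1305 CPM against 110 to 420 CPM, with 5 of 5 lower. None of these macrophage, neutrophil or thrombocyte markers was at 0 in any library. The 10 T-cell markers summed to 33.7 to 40.8 CPM in wild type, 58.4 CPM in mutant pool 5 and 15.1 CPM in mutant pool 6, with 1 of 10 lower and 1 higher in both mutant pools. Beside these counts of markers, 14.8% of all tested genes were lower and 11.1% higher in both mutant pools. The part of these cells in the differences of SYK, BTK and blnk was not tested.

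To set the genes against the other leukocytes of the same library, counts were expressed per 10000 counts of the 7 pan-leukocyte genes, which include ptprc (CD45), CORO1A and LCP1. On this scale cd79a stood at 68.8, 41.9 and 70.7 in wild-type pools 1, 2 and 3, and at 3.83 and 0 in mutant pools 5 and 6. cd79b stood at 72.4, 59.2 and 111 in the wild-type pools, and at 11.5 and 4.83 in the mutant pools. Both chains were thus low in the mutant pools against leukocyte RNA as well as against all RNA. cd37 stood at 424, 337 and 769 in the wild-type pools and at 127 and 116 in the mutant pools, which were at 24.96% and 22.7% of the wild-type mean, closer to each other than on the CPM scale.

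PAX5 behaved differently in the mutant pools on the leukocyte scale. It stood at 65.6, 53.4 and 80.4 in wild-type pools 1, 2 and 3, at 3.07 in mutant pool 5 and at 38.6 in mutant pool 6, or 4.61% and 58.1% of the wild-type mean. Set against ptprc alone, a reference chosen after its values were seen, PAX5 made 3.65% to 5.24% of the counts of both genes in wild type, 0.194% in mutant pool 5 and 4.69% in mutant pool 6. The exact 95% binomial interval of the last share was 2.71% to 7.51%, which includes all 3 wild-type shares. However, ptprc made only 325 of the 4141 pan-leukocyte counts in mutant pool 6. In wild-type pools 1, 2 and 3 it made 2946 of 24849, 1955 of 13846 and 1145 of 7216. This smaller part of ptprc in mutant pool 6 raises any share taken against it there. cd79b was at 4.03% to 6.53% of the pair with ptprc in wild type and at 0.724% and 0.612% in mutant pools 5 and 6.

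The kinases took other positions on this scale. BTK stood at 484, 599 and 794 per 10000 pan-leukocyte counts in wild-type pools 1, 2 and 3, and at 897 and 891 in mutant pools 5 and 6, above all wild-type pools. SYK overlapped, at 835, 997 and 1110 in the wild-type pools and 950 and 662 in the mutant pools. blnk stood at 167, 219 and 177 in wild type, and at 157 and 118 in the mutant pools, below all wild-type pools. As a result the counts of BTK per count of SYK were 0.580, 0.600 and 0.715 in the wild-type pools and 0.944 and 1.35 in mutant pools 5 and 6. The phospholipase PLCG2, the target of BTK, was likewise higher on the leukocyte scale. It stood at 767, 831 and 1057 in wild type and at 1343 and 1275 in the mutant pools. In CPM PLCG2 overlapped, with a log2 fold change of -0.23 and an edgeR adjusted p of 0.888. The leukocyte scale raised genes in general in the mutant pools. Scaling to it moved the median log2 fold change of all tested genes from 0.24 to 1.34, and BTK, at 0.51, lay below that median.

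**Figure D2:**
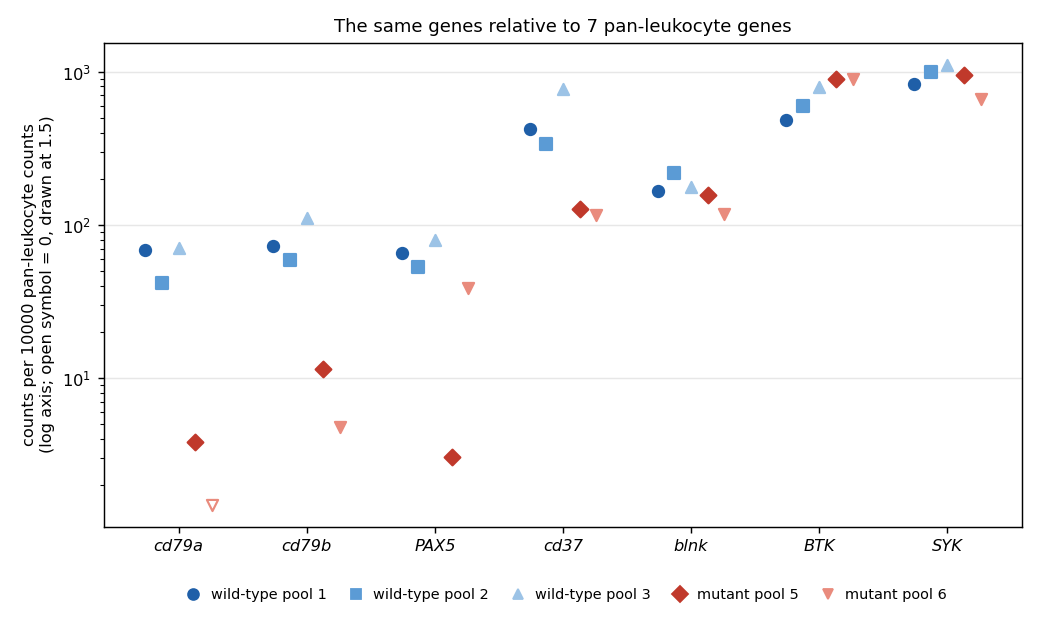
Counts of the 7 genes per 10000 counts of 7 pan-leukocyte genes, on a log axis, in the same 5 libraries and symbols. cd79a, cd79b and cd37 stay well below wild type in both mutant pools, PAX5 does so in mutant pool 5 (3.07) and less in mutant pool 6 (38.6), and BTK lies above all wild-type pools. Scaling to these genes moved the median log2 fold change of all tested genes to 1.34.

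The edgeR test was repeated with libraries scaled to the pan-leukocyte genes. This scaling moved the median log2 fold change of all tested genes from 0.24 to 1.34 and called 2451 genes, of which 2432 were higher. Of the 7 genes only cd79a passed, at -4.60 (standard error 1.46) and an edgeR adjusted p of 0.0227. cd79b was at -3.23, cd37 at -2.07 and PAX5 at -1.73, with adjusted p-values of 0.0919, 0.305 and 0.387. The signs of SYK and blnk stayed negative, at -0.28 and -0.44, and that of BTK turned to 0.51.

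**Figure D3:**
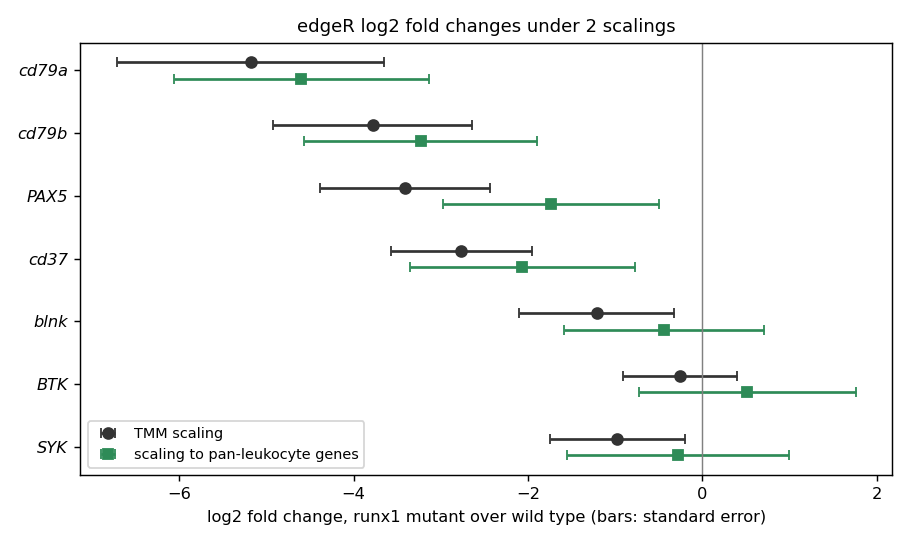
edgeR log2 fold changes, runx1 mutant over wild type, of the 7 genes with TMM scaling (circles) and with scaling to pan-leukocyte genes (squares); bars are standard errors. cd79a moves from -5.18 to -4.60 and PAX5 from -3.41 to -1.73, and BTK changes sign from -0.26 to 0.51.

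The immunoglobulins, the antigen-binding part of the receptor, were examined with the surface genes of B cells in a list of 65 gene IDs, of which 13 passed the filter on low counts. Of the 13, 8 were lower in both mutant pools than in all wild-type pools and 0 were higher, beside 14.8% and 11.1% of all tested genes. The median log2 fold change was -1.39 against 0.24 over all tested genes. Several of the 8, such as igl1c3 with 2 and 1 counts in the mutant pools, passed the filter only because of the wild-type pools. Among such low genes the filter favoured the lower direction, so these shares and this median are descriptions and no support. No gene of this list passed in edgeR, where 5 of 13 were lower at an unadjusted p under 0.05 beside 1.21% of all genes, nor in the DESeq2 Wald test. linc-iglc3, a gene of like pattern to cd79a, is outside this list by the spelling of its name. It passed in the DESeq2 Wald test at -4.41, with an adjusted p of 0.00459, but not in edgeR, at an adjusted p of 0.612. As linc-iglc3 was picked for its likeness to cd79a, its low mutant values follow from that choice and are no separate support. The 4 genes of the list with the smallest p were light-chain genes. igl1c3 was at -4.50, igl3c3 at -4.30, igl3v5 at -4.05 and igic1s1 at -3.28, each with an edgeR adjusted p of 0.612. Without mutant pool 5, igl3c3 was at -9.77 and igl3v5 at -8.66. Both genes had 0 counts in mutant pool 6, the only mutant pool then left. These sizes are therefore set by how the fit treats 0 counts and are not measured. Without mutant pool 6, igl3c3 was at -3.27 and igl3v5 at -3.03. For igic1s1 the value was -1.78 with pan-leukocyte and -1.15 with erythroid scaling.

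The light-chain constant gene igl3c3 had 179, 66 and 78 counts in wild-type pools 1, 2 and 3, and 11 and 0 counts in mutant pools 5 and 6, much as cd79a did. Another light-chain gene, igic1s1, gave 121, 47 and 39 counts over the wild-type pools and 5 and 10 counts in the mutant pools, with the higher mutant value in mutant pool 6 as for PAX5. The constant gene igl4c1 followed neither. It had 20, 117 and 7 counts in the wild-type pools and 3 and 807 counts in the mutant pools, with its 2 highest values in the libraries with high ovary markers, and the part of ovary RNA in these values was not tested.

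The heavy-chain gene of IgM, ighm, which was named after its values were seen, was lower in CPM in both mutant pools. In mutant pool 5 the margin was narrow, unlike that of the receptor chains. It had 1206, 561 and 275 counts in wild-type pools 1, 2 and 3, and 320 and 55 counts in mutant pools 5 and 6. The level in mutant pool 5, 10.3 CPM, was just below that of wild-type pool 3, 10.4 CPM, and mutant pool 6 was at 1.61 CPM. Per 10000 pan-leukocyte counts ighm stood at 485, 405 and 381 in wild-type pools 1, 2 and 3. On that scale it was at 245 and 133 in mutant pools 5 and 6. For ighm the log2 fold change was -1.89 (standard error 1.002), with an edgeR adjusted p of 0.612. Per count of cd79b there were 6.70, 6.84 and 3.44 counts of ighm in the wild-type pools and 21.3 and 27.5 in mutant pools 5 and 6. The share of ighm among the counts of ighm and cd79b was 87.0%, 87.2% and 77.5% in wild-type pools 1, 2 and 3, and 95.5% and 96.5% in mutant pools 5 and 6, the last with 2 counts of cd79b. In these percent shares the wild-type pools themselves differed by about as much as mutant pool 5 did from the highest of them. In counts of ighm per count of cd79b, however, mutant pool 5 at 21.3 was well above the wild-type range of 3.44 to 6.84. The difference between genotypes was not tested.

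The IgD gene ighd, carried by mature B cells in mammals together with IgM, gave 153, 57 and 27 counts over the wild-type pools and 15 and 3 counts in the mutant pools, with a log2 fold change of -3.14. It made 11.3%, 9.22% and 8.94% of the counts of ighd and ighm in wild-type pools 1, 2 and 3, 4.48% in mutant pool 5 and 5.17% in mutant pool 6. Both mutant shares were below the wild-type shares, the last from 3 counts of ighd, and the difference was not tested. Over the 39 heavy-chain variable gene IDs, all of which were too low to test, the counts summed to 131, 52 and 31 in the wild-type pools and to 25 and 21 in the mutant pools. A count was seen for 26, 18 and 15 of these IDs in wild type and for 9 and 5 in the mutant pools. The number of IDs seen fell with the summed counts, and the variety of these genes was not tested. In mutant pool 6, ighv6-1 gave 11 and ighv4-1 gave 7 of the 21 counts. These 2 IDs gave 12, 2 and 2 and 5, 5 and 5 counts in the wild-type pools, and 2 and 0 in mutant pool 5.

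**Figure D4:**
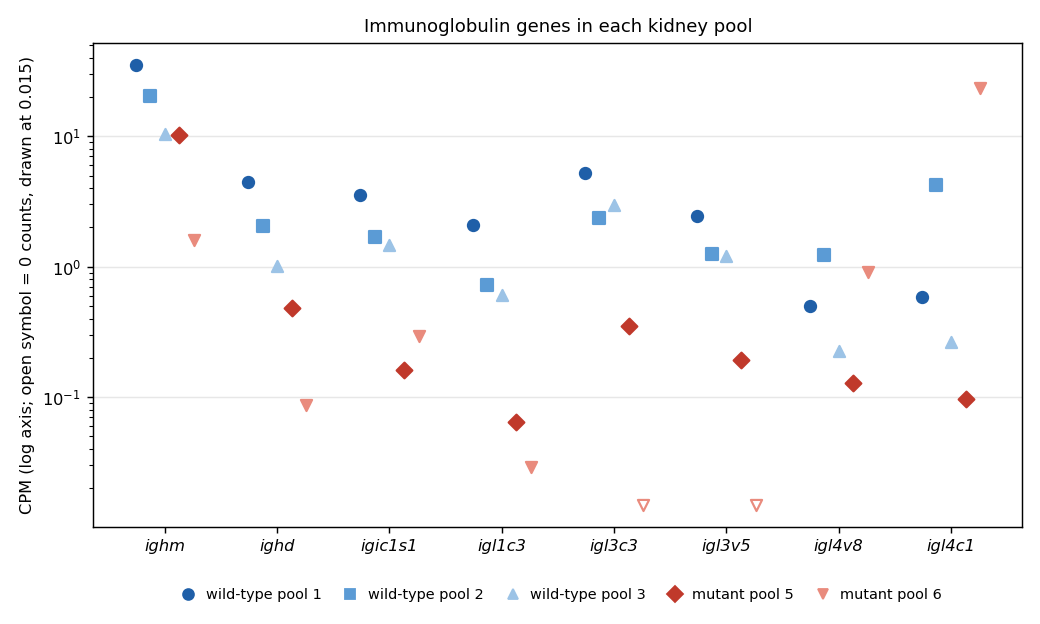
CPM on a log axis of 8 immunoglobulin genes in each library, in the symbols of the plot of the 7 genes. ighm in mutant pool 5 (10.3 CPM) sits just below wild-type pool 3 (10.4 CPM). By wider margins ighd, igl1c3, igl3c3 and igl3v5 are lower in both mutant pools. igl4c1 is highest in mutant pool 6 and wild-type pool 2.

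Of the genes that rearrange the receptor loci, RAG1 had 63, 53 and 11 counts in wild-type pools 1, 2 and 3, and 4 and 1 counts in mutant pools 5 and 6. Its log2 fold change was -4.09 (standard error 1.24), with an edgeR adjusted p of 0.612. RAG2, which forms the recombinase together with RAG1, gave 43, 35 and 11 counts over the wild-type pools, 4 in mutant pool 5 but 56 in mutant pool 6. The partner genes were thus both low in mutant pool 5 and apart in mutant pool 6, the library with the highest ovary markers. The list of recombination and early lymphoid genes had 5 tested members, 1 lower and 1 higher in both mutant pools. This was near the 14.8% lower and 11.1% higher of all tested genes, and the median log2 fold change of the list was -0.15. The higher gene was il7r, the receptor of a lymphoid growth factor, at 1.62 with an edgeR adjusted p of 0.612. LEF1 and flt3, at 2.70 and -0.52, overlapped between the groups.

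The other signalling genes of the pathway lay in either direction or overlapped, and none passed in edgeR. Of 25 tested genes, 8 were lower and 4 higher in both mutant pools and 13 overlapped, with a median log2 fold change of -0.38, against shares of 14.8% lower and 11.1% higher over all tested genes. By the smallest p the named genes were VAV2, a guanine nucleotide exchange factor, at 1.96, DOCK8, another such factor, at -1.03, and the Src-family kinases blk and fynb at 2.08 and 1.26, each with an edgeR adjusted p of 0.612. blk, a kinase of B cells in the mouse, gave 25, 42 and 8 counts over the wild-type pools and 124 and 111 counts in the mutant pools, opposite in direction to cd79a. LYN, the kinase that phosphorylates the receptor chains in mammals, overlapped at -0.53.

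Inhibitors of the pathway were represented by 9 tested genes, 2 of them lower in both mutant pools and 0 higher, near the 14.8% of all tested genes that were lower, with a median log2 fold change of -0.62. cd22, a B-cell lectin that restrains the receptor, gave 107, 65 and 41 counts over the wild-type pools and 33 and 20 counts in the mutant pools, at -1.51 with an edgeR adjusted p of 0.612. The phosphatase genes ptpn22 and INPP5D overlapped, at -1.09 and -0.75. INPP5E, whose part in B-cell receptor signalling was not tested, was lower in both mutant pools at -0.65, as was cd22.

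Of the transcription factors listed for B cells, 10 were tested, of which 5 were lower in both mutant pools and 0 higher. These shares were 14.8% and 11.1% over all tested genes, and the list had a median log2 fold change of -1.19. The part of other blood cells in the values of these factors was not tested. bcl11ab was at -1.67, IKZF2 at -1.65 and tcf3a at -1.07, each lower in both mutant pools, and spi1a overlapped at -1.38, all with an edgeR adjusted p of 0.612. EBF1, the factor that acts together with PAX5 in the mouse, was found only by a wider match of names that was added later. Its more counted ID, ENSDARG00000099849, gave 113, 66 and 62 counts over the wild-type pools and 60 and 63 counts in the mutant pools, at -0.51. In CPM it was lower in both mutant pools, at 1.93 and 1.84 against 2.34 to 3.31 in wild type. The other EBF1 ID, ENSDARG00000069196, was too low to test, with 3, 3 and 4 counts in the wild-type pools and 8 and 14 in the mutant pools, and was higher in both.

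Listed paralogs of the 7 genes in other cells, as far as their names matched, showed 1 of 10 lower and 0 higher in both mutant pools. Over all tested genes these shares were 14.8% and 11.1%. The median log2 fold change of the paralogs was 0.30. ZAP70, which replaces SYK in T cells, was at 0.95, and the Tec-family kinases txk and tec, relatives of BTK, were at 0.69 and -0.59. PAX8, the relative of PAX5 that is expressed in kidney tubules, was at 1.72, and gave 60, 198 and 2 counts over the wild-type pools and 531 and 92 in the mutant pools. The adaptor genes lcp2a and lcp2b, relatives of blnk, were at -0.91 and -0.98, of which only lcp2b did not overlap. The tetraspanins cd9a, cd9b and CD63 were at -0.09, 1.15 and -0.09. All of the adjusted p-values of the paralogs in edgeR were 0.612 or more.

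**Figure D5:**
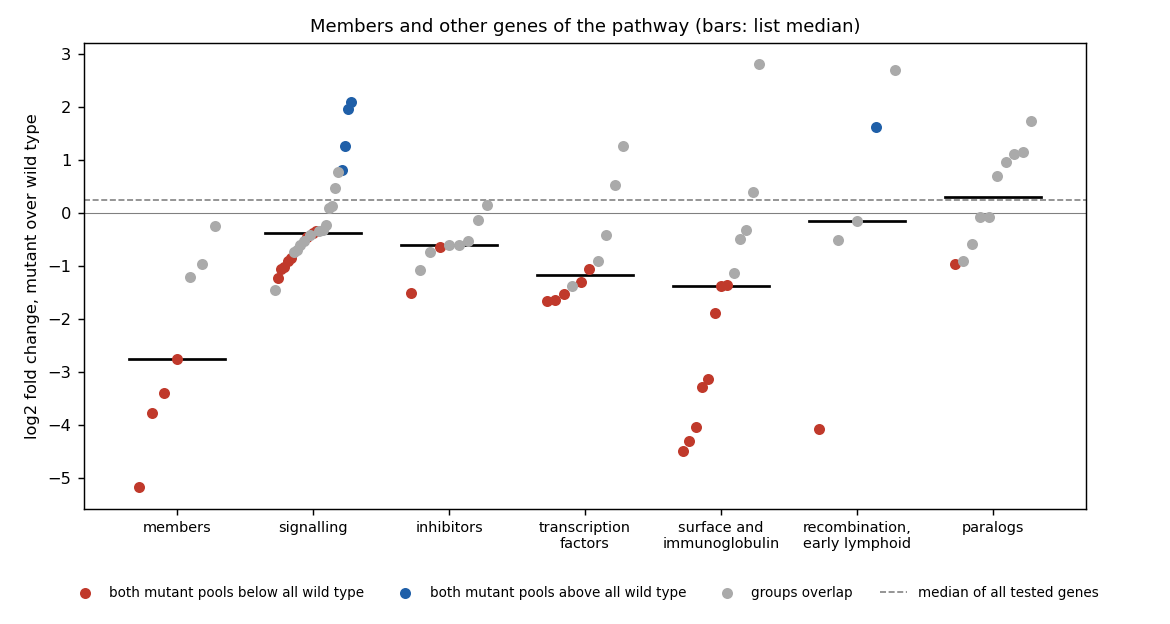
edgeR log2 fold changes, runx1 mutant over wild type, of the 7 genes and of the tested genes of 6 lists; red points are lower and blue points higher in both mutant pools than in all wild-type pools, grey points overlap, and bars are list medians. The median was -2.76 for the 7 genes, -1.39 for surface and immunoglobulin genes and -0.38 for the other signalling genes, against 0.24 for all tested genes (dashed line). Genes with few mutant counts passed the filter on low counts because of the wild-type pools.

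Genes of like pattern were sought over the 5 libraries, by the root mean square difference between profiles of log2 CPM, each centred on its own mean, among 16544 tested genes with a symbol and a mean of at least 1 CPM. The nearest to cd79a were linc-iglc3 at 0.333, igl3c3 at 0.342, tlr19.1 at 0.347, si:ch73-106n3.1 at 0.374 and tlr9, an endosomal receptor of DNA, at 0.378. cd79b was at 0.406, seventh among all tested genes. The profile of tlr9 ran at 2.29, 1.59 and 1.59 CPM in wild-type pools 1, 2 and 3, at 0.129 CPM in mutant pool 5 and at 0 CPM in mutant pool 6. The other members were farther from cd79a, at 0.798 for cd37, 1.21 for PAX5, 1.56 for blnk, 1.60 for SYK and 2.002 for BTK.

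The nearest gene to PAX5 was igic1s1, at 0.315, ahead of plaat1l at 0.640, carmil3 at 0.642, si:dkey-238d18.13 at 0.674 and si:dkey-24p1.1 at 0.701. The members nearest to PAX5 were cd37 at 1.09 and cd79b at 1.18. plaat1l stood at 26.05, 14.9 and 12.7 CPM in wild type and at 0.868 and 0.876 CPM in the mutant pools, with an edgeR adjusted p of 0.612. DESeq2 gave plaat1l an adjusted p of 8.63e-07. As plaat1l was picked for its likeness to PAX5, its low mutant values follow from that choice and are no separate support. These likenesses describe 5 libraries and carry no test.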

How the data were processed

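Whole-kidney RNA was sequenced as 5 libraries prepared as paired-end libraries with the TruSeq v2 chemistry, per the labels' protocols. The authors deposited raw counts of reads for each Ensembl gene ID. The submitters' processing notes name HISAT2 2.2.1.0, HTSeq 0.11.4, DESeq2 and the build GRCz11, with no role or order. The strand setting is not given in the sources used here, so overlapping and antisense genes cannot be told apart. The 5 closing rows of each file, reads given to no gene, held 28.1% to 39.4% of reads and were left out. Reads with several alignments, 8.58% to 10.3%, are listed there, so near-identical copies such as immunoglobulin genes can be undercounted.

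From these counts, genes were kept by filterByExpr (minimum count 10, total 15), scaled by TMM (factors 0.920 to 1.09) and compared in edgeR 4.0.16 by the two-sided quasi-likelihood test with robust empirical Bayes, adjusted by Benjamini-Hochberg over 20386 genes at a threshold of 0.05. Standard errors are the log2 fold change over the root of the F statistic. Log2 CPM used a prior count of 2. An exact permutation test of 3 against 2 libraries cannot go below 0.1 and was not used. The p-values of edgeR and DESeq2 weigh the difference between the groups against the spread between pools, which is estimated with information shared across genes. Both tests were run on counts simulated once per spread, with 200 genes changed 8-fold. Each gene was drawn independently, so tissue content shared across genes was not simulated. At a low spread both tests recovered nearly all changed genes. At the gene-wise spread of these libraries edgeR called none of the changed genes. DESeq2 there called 83 changed and 123 unchanged genes, whereas it called 75 genes in all in the real libraries. The simulation thus does not reproduce these libraries. DESeq2 1.42.0, other scalings and filters, and leaving out libraries were alternatives. R 4.3.3, Python 3.11.15 and matplotlib 3.10.9 were used.

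Members and lists were chosen with earlier results of these data known. Beyond the members, the genes named are the 4 with the smallest p of each list, the tested paralogs, of which 1 is not reported here, and the 5 nearest genes in pattern for cd79a and PAX5. ighm, ighd, igl4c1, RAG2, PLCG2, LYN and EBF1 were named after their values were seen. List symbols had to match exactly 1 gene ID. No protein or promoter sequences and no coordinates were used here.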

Additional observations from a re-analysis of the deposited data

How the results depend on the processing

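No paired analysis was possible because wild-type pools are numbered 1 to 3 and mutant pools 5 and 6. The count of called genes was 0 in edgeR under TMM, DESeq2 size factors, upper quartile and erythroid scaling, both filters and each left-out library (range 0 to 0); unadjusted p-values under 0.05 numbered 890 under TMM. It was 75 in the DESeq2 Wald test, 52 lower and 23 higher, and 2451 with pan-leukocyte scaling. Of the 7 genes, 2 were called in the DESeq2 Wald test (cd79a at -5.32, cd79b at -3.88) and 1 with pan-leukocyte scaling (cd79a at -4.60), and 0 without any library. The count of the 7 that were lower in every mutant pool used was 4 without wild-type pool 2 and mutant pool 6 together, 5 with pan-leukocyte and 3 with erythroid scaling. It was between 4 and 7 with each library left out, the highest without mutant pool 5. With 1 mutant pool left, only that pool had to lie below the wild-type pools, a weaker condition. The share of all genes that met the condition under these settings is not given here. With at least 10 counts in every library, cd79a, cd79b and PAX5 were not tested. The median of all genes was 0.24 under TMM, 0.07 under upper quartile, 1.34 under pan-leukocyte and 2.07 under erythroid scaling.

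BTK turned positive with pan-leukocyte scaling (0.51), erythroid scaling (0.94) and without wild-type pool 2 and mutant pool 6 (0.37); with each library left out it ran from -1.45 to 0.41. The other 6 genes kept their sign in every alternative that tested them, but not their size: with erythroid scaling cd79a was at -4.74, cd79b at -3.06, cd37 at -1.57, PAX5 at -1.004, blnk at -0.25 and SYK at -0.022. With each library left out, cd79a ran from -9.54 to -4.16, cd79b from -5.94 to -2.92 and PAX5 from -4.57 to -2.80. In the same way cd37 ran from -4.05 to -2.06, blnk from -2.73 to -0.47 and SYK from -2.58 to -0.21. The -9.54 of cd79a is without mutant pool 5 and rests on 0 counts in mutant pool 6, so its size is not measured. Without 1 mutant pool the lone one is assumed to vary like wild type.

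Among the other named genes, erythroid scaling turned the sign of cd22 (0.073), lcp2a (0.23), LYN (0.25), bcl11ab (0.27), flt3 (0.38), lcp2b (0.46), tec (0.54), tcf3a (0.59), CD63 (0.72), DOCK8 (0.72), PLCG2 (0.93), INPP5E (1.23), EBF1 (1.48), cd9a (1.56) and RAG2 (2.47). Pan-leukocyte scaling turned flt3 (0.040), LYN (0.12), tec (0.14), INPP5E (0.29), CD63 (0.44), PLCG2 (0.56), EBF1 (0.73), cd9a (0.83) and RAG2 (1.81). Without wild-type pool 2 and mutant pool 6, igl4c1 (-2.14), flt3 (0.11), INPP5D (0.13), tec (0.15), PLCG2 (0.38), LYN (0.47), cd9a (0.55) and CD63 (0.71) turned. With each library left out, signs turned within INPP5D (-2.85 to 0.10), LEF1 (-1.58 to 4.72), flt3 (-2.32 to 0.29), ZAP70 (-0.080 to 1.57), PAX8 (-0.18 to 3.42), txk (-0.76 to 1.43), cd9b (-0.37 to 4.03), tec (-1.90 to 0.11), cd9a (-0.63 to 0.33), CD63 (-2.05 to 0.74), igl4c1 (-4.05 to 4.82), RAG2 (-2.86 to 0.71), PLCG2 (-1.48 to 0.45) and LYN (-2.40 to 0.28). The cause of these turns was not tested. The wider match of names, chosen after seeing the data, gave 8 lower and 5 higher of 36 signalling genes and 8 lower and 0 higher of 21 transcription factors. It also gave 9 lower and 0 higher of 15 surface and immunoglobulin genes, and 1 lower and 1 higher of 13 paralogs. The lists of inhibitors and of recombination genes did not change. The shares over all tested genes were 14.8% lower and 11.1% higher.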
